A study of Homo sapiens with 22 samples.

Results

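The residual tumours described here are xenografts of H3122, a human lung adenocarcinoma cell line driven by an EML4-ALK fusion kinase, that remained in NSG mice after 6 weeks of alectinib. They were set against therapy-naive H3122 tumours in the same host, across human genes. Group membership was taken from the sample labels. The comparison used 8 of the 22 samples of the study, with 4 samples in NSG mice after 6 weeks of alectinib (called 6 weeks below) and 4 in therapy-naive NSG mice (naive).

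Alectinib is a small-molecule inhibitor of the ALK kinase, and NSG mice lack T, B and NK cells, so that a human tumour can grow in them. The study also holds NSG tumours after 2 weeks of alectinib (4 samples) and tumours in hHGF-NSG mice, a host named for human HGF, after 2 weeks (4 samples), after 6 weeks (3 samples) and therapy-naive (3 samples). These entered the model and are used where the 6 weeks NSG state is placed in time or set against the other host. All groups carry the same cell line, the naive groups have no vehicle named in the labels, and the labels do not say whether the samples of a group came from separate animals. The p-values therefore measure the spread between these samples.

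Signalling from ALK runs through the RAS-ERK and PI3K-AKT pathways, which drive cell division, glucose and lipid metabolism and protein synthesis. When a kinase that a tumour depends on is inhibited, most cells die or stop dividing, and those that stay in the shrunken tumour are called residual or drug-tolerant cells. The airway epithelium holds club cells that secrete uteroglobin, mucous cells and multiciliated cells, whose motile cilia are built by a programme under the factors GEMC1, MCIDAS and FOXJ1.

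Reads recovered from the deposited values numbered 11934313 to 16329855 per library at 6 weeks and 14821038 to 19065656 in naive tumours. Some libraries stood apart from the rest of their group. The chi-square per degree of freedom between the reads of pairs of replicates was 22.5 to 29.0 for the 3 pairs that hold 6 weeks replicate 3, against 4.29 to 12.96 for the other pairs of that group. It was 26.1 to 48.5 for the pairs that hold naive replicate 2, against 4.28 to 18.7 for the other naive pairs. No pair was within counting noise, so no library was counted as a copy of another. Human HGF, the ligand of MET, had 43 reads in the library labelled naive replicate 1 in NSG, while the other naive libraries held 0, 0 and 1 and the 6 weeks libraries 1, 0, 6 and 0. The level of HGF in that library, 0.320 FPKM, was above those of the 3 hHGF-NSG naive libraries, 0.0978, 0.187 and 0.301 FPKM. Whether its host label is right was not tested. Counts are therefore also given without these 3 libraries.

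The tumour identity of the samples was checked first. Epithelial EPCAM stood at 242, 252, 344 and 255 FPKM at 6 weeks, against 299, 347, 323 and 318 FPKM in naive tumours (fragments per kilobase of gene, scaled for library size), and the difference did not pass the test (log2 change -0.25 ± 0.12, adjusted p = 0.0751). The lung adenocarcinoma factor NKX2-1 was high in every sample. Summed over 8 markers of H3122 and of epithelium, the level was 1265 to 1509 FPKM at 6 weeks, against 2502 to 3947 FPKM in naive tumours, where keratins made up most of the sum. Of these 8 markers, 6 were called lower at 6 weeks, 4 of them at least 2-fold. NKX2-1 was the 1 called higher, and EPCAM the 1 not called. Of 16 markers of blood, vessel, fibroblast, fat and muscle cells, 3 reached 1 FPKM in any of the 8 samples and 3 were at 0 in all of them. The summed level of the 16 was 6.88 to 17.1 FPKM at 6 weeks, against 12.3 to 35.2 FPKM in naive tumours. The leukocyte marker PTPRC, for one, had 2 reads in all 4 of the 6 weeks libraries together. COL1A1, a collagen chain of fibroblasts, was the highest of these markers with 10.2, 10.6, 4.68 and 13.1 FPKM at 6 weeks, against 30.3, 8.89, 30.8 and 27.6 FPKM in naive tumours. Host cells of a xenograft are mouse cells, so these low human values do not measure how many of them were present. Whether the COL1A1 reads came from tumour cells or from mouse RNA was not tested. In bulk tissue, fewer cells of a type and less RNA per cell cannot be told apart.

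Across human genes, the 6 weeks state was far from the naive one. Of 16029 genes tested, 9234 (57.6%) changed at an adjusted p under 0.05 in a limma fit over all 22 samples, 4612 (28.8%) of them higher and 4622 (28.8%) lower. At least 2-fold changes were made by 1236 higher genes (7.71%) and 1247 lower genes (7.78%), and at least 8-fold changes by 51 and 80. The 4 and 4 samples did not overlap for 3738 genes that were higher (23.3%) and 3892 that were lower (24.3%). The median log2 change of all genes tested was 0.03. The deposited values are on a common median-ratio scale, which largely sets this median and the even split. A shift of all genes together would not be seen on it. Among protein coding genes 28.1% rose and 35.7% fell, and the list counts below are to be read beside these shares. Without the 3 libraries that stand apart, 4349 genes were higher and 4456 lower. Changes are given below as log2 changes ± SE on the log2(FPKM + 1) scale, on which the changes of weakly expressed genes come out too small. Most genes named below were chosen among called genes without overlap between the groups, so their lack of overlap was part of the choice. ALK, EML4, MET and the genes of highest level were named without this condition.

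**Figure D1:**
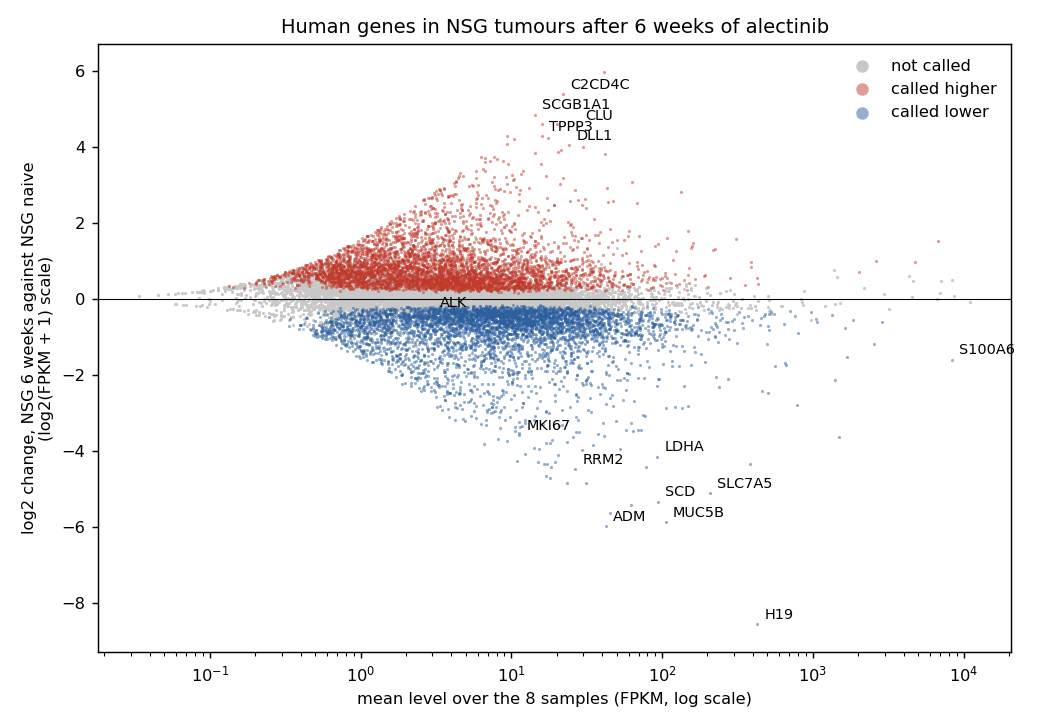
Log2 change of each human gene tested at 6 weeks against naive NSG tumours, plotted against its mean FPKM over the 8 samples on a log axis. Red and blue points are the 4612 and 4622 genes called higher and lower, grey points were not called, and H19 has the lowest value at -8.57.

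The protein coding genes with the largest increases included secreted airway proteins, a Notch ligand and parts of the motile cilium. C2CD4C (ENSG00000183186, hg38 chr19:405438-409170, minus strand), a C2-domain protein, had 53.2, 46.9, 45.3 and 29.99 FPKM at 6 weeks, against 0, 0, 0.0697 and 0.153 FPKM in naive tumours (log2 change 5.38 ± 0.21, adjusted p = 2.51e-14). SCGB1A1, which encodes uteroglobin, the main secreted protein of club cells, had 33.9, 19.1, 36.8 and 24.6 FPKM at 6 weeks (271, 144, 280 and 246 reads) and was listed at 0 in all 4 naive libraries. A count of 0 allows up to 3 reads in a library, for counting error only, so its fitted change of 4.84 depends on the pseudocount. CLU, the secreted chaperone clusterin, had 61.6, 55.1, 63.8 and 35.9 FPKM at 6 weeks, against 0.994, 1.24, 1.27 and 1.701 FPKM in naive tumours (log2 change 4.56 ± 0.19). In each of these genes every 6 weeks sample lay above every naive sample, and replicate 4 was the lowest of the 6 weeks samples for C2CD4C and CLU.

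Other secreted or surface proteins rose as well. PIP, prolactin-induced protein, a secretory protein of glands, had 28.5, 27.3, 53.4 and 28.1 FPKM at 6 weeks, against 0.625, 1.52, 0.869 and 0.409 FPKM in naive tumours. ACKR3, an atypical chemokine receptor that binds CXCL12, had 18.97, 18.3, 20.03 and 17.1 FPKM, against 0.0971, 0.112, 0.386 and 0.05301 FPKM in naive tumours. PXDC1 stood at 81.7, 78.4, 86.5 and 68.4 FPKM, against 4.76, 4.48, 4.64 and 4.72 FPKM in naive tumours, and MS4A15, a tetraspan protein of lung epithelium, at 15.2, 10.7, 12.03 and 12.8 FPKM, against 0, 0, 0 and 0.0818 FPKM. No sample of one group reached the other in any of these, and 6 weeks replicate 3 was nearly 2 times as high in PIP as its group mates. DLL1, a Notch ligand, had 52.5, 47.4, 43.3 and 42.9 FPKM at 6 weeks, against 2.24, 1.92, 2.05 and 1.299 FPKM in naive tumours (log2 change 4.05 ± 0.15). Over genes of every class the largest value, named after it was seen, was that of CYP2B7P, a pseudogene of the cytochrome P450 family 2 subfamily B, with a mean of 81.7 FPKM at 6 weeks and 0.296 FPKM in naive tumours (log2 change 5.98 ± 0.15), where reads shared with a near-identical gene make the value uncertain.

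The largest decreases were found in genes of hypoxia, lipid synthesis, amino acid uptake, DNA synthesis and mucus. ADM, the vasodilator peptide adrenomedullin and a hypoxia target, had 0.241, 0.0568, 0.0845 and 1.33 FPKM at 6 weeks, against 69.6, 86.9, 86.7 and 95.7 FPKM in naive tumours (log2 change -5.98 ± 0.24, adjusted p = 3.09e-14). SCD, the desaturase that makes oleate, had 3.55, 3.61, 2.697 and 4.22 FPKM at 6 weeks, against 158, 241, 155 and 182 FPKM in naive tumours (log2 change -5.34 ± 0.20). SLC7A5, the light chain of the LAT1 transporter of large neutral amino acids, had 11.8, 10.9, 9.47 and 9.74 FPKM, against 400.03, 279.6, 443 and 494 FPKM in naive tumours (log2 change -5.11 ± 0.13). The groups were far apart in all 3, and 6 weeks replicate 4 had the highest ADM of its group.

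Matrix and secreted factors were also among them. TNC, the matrix protein tenascin C, had 0.392, 0.577, 0.524 and 0.907 FPKM at 6 weeks, against 41.6, 31.6, 55.2 and 56.4 FPKM in naive tumours, LOX, the collagen crosslinking enzyme lysyl oxidase, had 0.498, 0.348, 0.317 and 0.273 FPKM, against 31.6, 30.6, 37.6 and 33.8 FPKM, and AKAP12, a scaffold of protein kinase A, had 0.491, 0.442, 0.744 and 1.25 FPKM, against 37.4, 36.97, 30.99 and 37.4 FPKM. IGFBP3, which binds insulin-like growth factors, had 1.22, 1.77, 1.27 and 2.98 FPKM at 6 weeks, against 145, 65.3, 149 and 133 FPKM in naive tumours. Naive replicate 2 was the lowest naive sample for IGFBP3 and TNC and lay above every 6 weeks sample in both. The same library was the highest for ITLN1, the lectin intelectin 1 of mucous cells, with 0.637, 0.156, 0.206 and 0.118 FPKM at 6 weeks, against 27.6, 241, 46.1 and 47.3 FPKM in naive tumours.

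**Figure D2:**
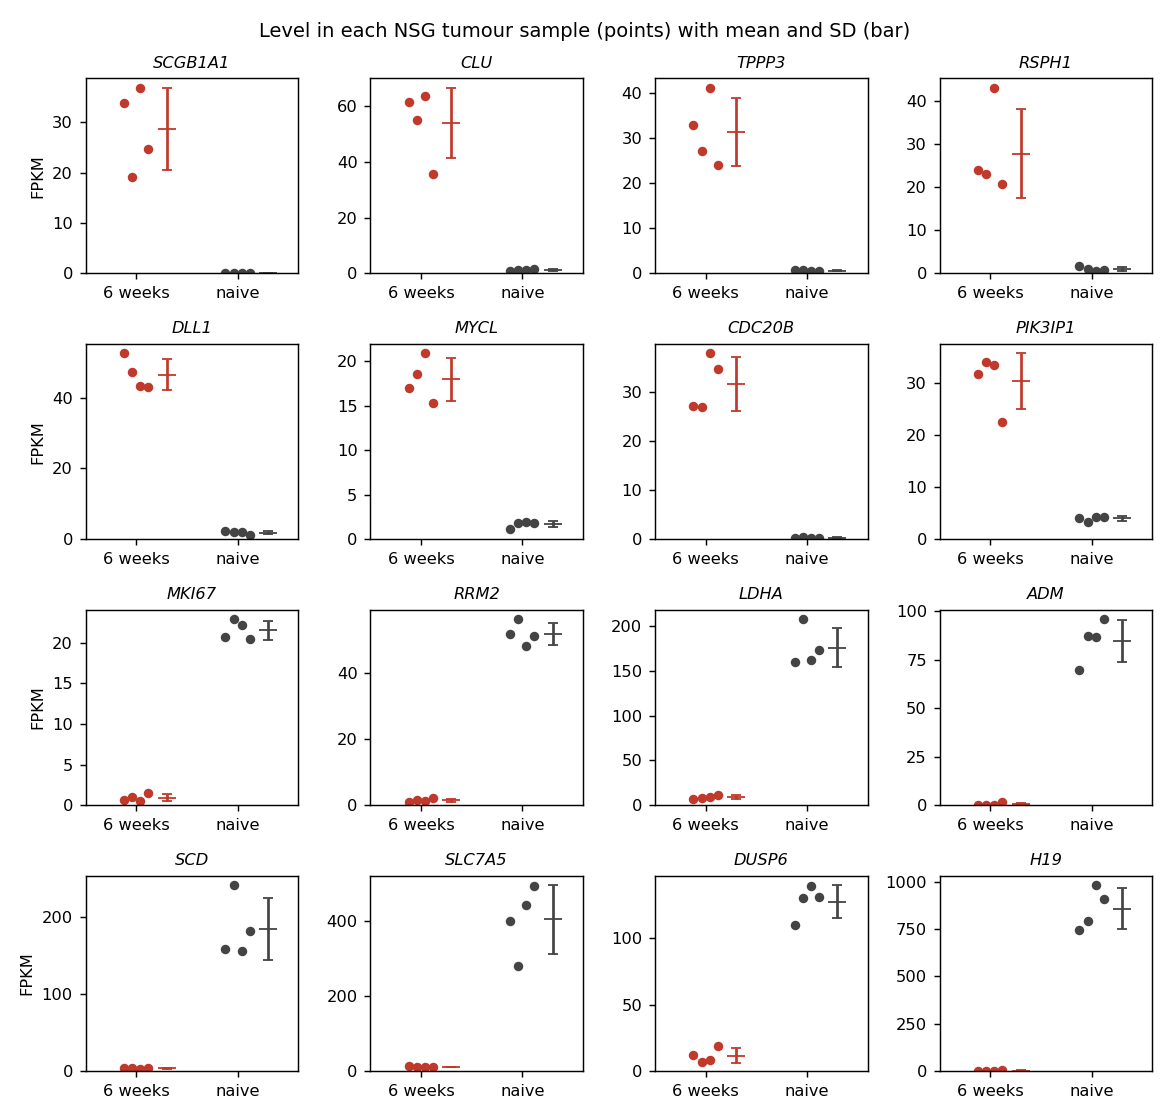
Levels (FPKM, linear axes from 0) of 16 genes in each 6 weeks sample (red) and each naive sample (grey), with the mean and SD beside the points. In all 16 genes the 4 samples of one group lie apart from the 4 of the other, which was a condition of their choice. SCGB1A1 is at 0 in the naive samples.

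The ALK fusion partners and MET were measured as the targets around which the study was built. ALK (ENSG00000171094, hg38 chr2:29192774-29921566) had 3.06, 2.63, 2.29 and 2.18 FPKM at 6 weeks, against 3.43, 3.26, 3.51 and 3.85 FPKM in naive tumours (log2 change -0.36 ± 0.11, adjusted p = 0.0114). EML4, the 5′ partner of the fusion, had 21.3, 23.1, 18.2 and 22.4 FPKM, against 30.1, 33.6, 27.1 and 28.3 FPKM in naive tumours (log2 change -0.47 ± 0.10, adjusted p = 0.000648), and gene-level values do not separate fused from unfused transcripts. MET, the receptor of HGF, had 11.4, 10.9, 11.5 and 15.03 FPKM at 6 weeks, against 25.7, 27.2, 22.7 and 25.5 FPKM in naive tumours (log2 change -1.001 ± 0.09, adjusted p = 1.1e-08). All 3 fell without overlap between the groups, and 6 weeks replicate 4 was the highest of its group in MET.

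Genes that report ERK activity fell. Of 20 tested genes of ERK output and feedback, 0 rose and 16 fell, 14 of them at least 2-fold, with a median log2 change of -1.63 (0.03 over all genes). DUSP6, the phosphatase that switches ERK off, had 12.2, 6.85, 8.23 and 19.04 FPKM at 6 weeks, against 109.8, 130.1, 139 and 131 FPKM in naive tumours (log2 change -3.44 ± 0.24). ETV4, an ETS-family factor, had 0.363, 0.835, 0.445 and 0.824 FPKM, against 24.7, 31.2, 35.7 and 37.1 FPKM in naive tumours, and PHLDA1 had 1.08, 0.957, 1.43 and 1.88 FPKM, against 36.2, 41.3, 39.7 and 40.1 FPKM. Naive and 6 weeks samples did not overlap in these genes. Cyclin D1, CCND1, which couples ERK to the cell cycle, had 85.4, 81.6, 83.8 and 104 FPKM at 6 weeks, against 399.8, 349, 368 and 364 FPKM in naive tumours (log2 change -2.05 ± 0.10).

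Genes that PI3K-AKT signalling holds down through FOXO factors moved the other way. Of 18 tested FOXO targets and PI3K feedback genes, 12 rose and 4 fell (median 0.59). PIK3IP1, an inhibitor of PI3K, had 31.6, 34.02, 33.4 and 22.5 FPKM at 6 weeks, against 4.09, 3.38, 4.22 and 4.23 FPKM in naive tumours. INSR, the insulin receptor, had 5.65, 4.99, 5.996 and 4.72 FPKM, against 0.6502, 0.946, 0.904 and 0.933 FPKM in naive tumours, and PDK4, which blocks entry of pyruvate into mitochondria, had 5.78, 4.25, 10.1 and 6.65 FPKM, against 0.598, 0.519, 0.434 and 0.715 FPKM. The groups did not overlap in any of the 3, as the choice of these genes required. GADD45A, a stress gene on the same list, fell (log2 change -1.02 ± 0.19).

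Receptor tyrosine kinases divided. Of 26 listed, 18 were tested, 8 rose and 7 fell. KIT, the receptor of stem cell factor, had 10.5, 10.6, 12.2 and 9.95 FPKM at 6 weeks, against 0.933, 1.401, 0.601 and 0.721 FPKM in naive tumours (log2 change 2.64 ± 0.12). RET, a receptor of the GDNF family, had 14.7, 16.4, 11.2 and 9.43 FPKM, against 0.497, 3.11, 1.32 and 1.56 FPKM in naive tumours (log2 change 2.47 ± 0.24). MST1R, the relative of MET that binds macrophage-stimulating protein, had 2.17, 2.25, 1.85 and 1.78 FPKM, against 10.05, 6.16, 10.9 and 10.1 FPKM in naive tumours (log2 change -1.75 ± 0.15). In all 3 the samples of one group lay apart from those of the other, and naive replicate 2 was the naive sample nearest to the 6 weeks level. Of 11 EGFR-family ligands only 4 passed the filter, and the ligand amphiregulin, AREG, fell (log2 change -1.20 ± 0.25).

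Cell division genes were low at 6 weeks. All 37 tested genes of G2/M and mitosis fell, each at least 2-fold, with a median log2 change of -2.50. Of 42 tested genes of G1/S and DNA replication, 40 fell and 0 rose (median -1.63). MKI67, which encodes the Ki-67 antigen of cycling cells, had 0.613, 1.02, 0.556 and 1.45 FPKM at 6 weeks, against 20.8, 22.9, 22.2 and 20.4 FPKM in naive tumours (log2 change -3.59 ± 0.13). UBE2C, the ubiquitin-conjugating enzyme of the anaphase-promoting complex, had 2.04, 2.82, 3.09 and 4.31 FPKM, against 48.1, 48.9, 46.3 and 50.3 FPKM in naive tumours, and BIRC5, survivin, had 3.298, 3.501, 3.79 and 4.05 FPKM, against 60.1, 65.3, 68.3 and 68.2 FPKM. For DNA synthesis, RRM2, a subunit of ribonucleotide reductase, had 0.874, 1.45, 1.19 and 2.07 FPKM, against 51.8, 56.4, 48.2 and 51.3 FPKM in naive tumours, and TK1, thymidine kinase, had 5.705, 5.19, 6.21 and 6.92 FPKM, against 133, 124, 178 and 169.6 FPKM. Levels at 6 weeks were low but above 0 in every library: MKI67 still had 108, 170, 93 and 318 reads.

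Factors known to activate these genes were lower too, among them MYBL2, which is itself counted in the G2/M list. Whether they drive the fall was not tested. MYBL2, which with the MuvB proteins activates mitotic genes, had 0.707, 1.25, 1.295 and 1.34 FPKM at 6 weeks, against 55.02, 51.3, 73.1 and 66.6 FPKM in naive tumours (log2 change -4.86 ± 0.16), and FOXM1 had 0.935, 1.04, 1.39 and 1.82 FPKM, against 18.4, 23.8, 23.6 and 23.4 FPKM (log2 change -3.35 ± 0.11). Both were low in every 6 weeks sample. Among CDK inhibitors, D cyclins and RB family members, 4 of 21 tested rose and 11 fell. The inhibitor CDKN2C, p18, fell (log2 change -2.005 ± 0.16), as did the RB relative RBL1, p107 (-1.30 ± 0.11), while the antiproliferative BTG2 rose to 54.4, 44.8, 48.2 and 49.2 FPKM, against 12.9, 24.2, 13.3 and 15.8 FPKM in naive tumours. Fitted on the 8 samples alone, 2 members of this list rose. Of 20 p53 targets tested, 3 rose and 11 fell, among them GDF15, a stress cytokine (-3.08), and DDB2, a DNA repair protein (-1.53).

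Promoters of these genes were read to show the letters that cell cycle factors are known to recognise. The sequences are RefSeq promoters on GRCh38.p14, from 250 bases before to 50 after a gene's start, with the first listed start of a gene used. Late cell cycle genes are known for the cell cycle genes homology region, here TTTGAA on either strand, often close to CCAAT boxes. It stood in 22 of the 32 G2/M promoters found (68.8%), against 9.33% of the promoters of 9524 tested protein coding genes, and CCAAT stood in 24 of 32 (75.0%), against 36.5%. E2F sites are written here as TTTGGCGC and TTTCCCGC: 8 and 11 of 36 G1/S promoters held them (22.2% and 30.6%), against 1.17% and 2.72% of all. These are matches of letters, not measured binding sites, and the letters in capitals are the reverse complement where the motif lies on the other strand. MKI67 and CDC20, the activator of the anaphase-promoting complex, show the first motif in capitals, MCM6, a subunit of the replicative helicase, and UHRF1, a reader of hemimethylated DNA, the E2F letters. CDC20 and MCM6 were picked for their motifs after their values were seen (log2 changes -3.10 and -2.87).
MKI67 (chr10:128126424-128126523, minus strand): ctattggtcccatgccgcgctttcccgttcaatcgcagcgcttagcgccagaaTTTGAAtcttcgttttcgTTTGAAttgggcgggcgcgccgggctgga
CDC20 (chr1:43358871-43358970, plus strand): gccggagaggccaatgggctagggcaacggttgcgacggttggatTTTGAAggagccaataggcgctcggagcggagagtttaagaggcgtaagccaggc
MCM6 (chr2:135876479-135876578, minus strand): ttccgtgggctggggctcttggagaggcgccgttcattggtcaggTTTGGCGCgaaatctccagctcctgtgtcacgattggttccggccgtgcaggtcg
UHRF1 (chr19:4909401-4909500, plus strand): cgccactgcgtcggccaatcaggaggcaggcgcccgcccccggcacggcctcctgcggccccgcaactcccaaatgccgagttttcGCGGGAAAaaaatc

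Glycolysis and hypoxia genes fell. Each of the 22 tested glycolysis genes fell, 19 of them at least 2-fold, with a median of -2.31. LDHA, lactate dehydrogenase A, had 7.33, 7.78, 9.28 and 11.8 FPKM at 6 weeks, against 160.1, 208, 162 and 174 FPKM in naive tumours (log2 change -4.15 ± 0.15). HK2, the hexokinase that starts the pathway, had 8.18, 8.39, 9.43 and 8.91 FPKM, against 99.7, 123, 94.4 and 109 FPKM in naive tumours, and GAPDH had 234, 202, 229 and 229 FPKM, against 2521, 2847, 2820.4 and 2934 FPKM. None of these 3 overlapped between groups, and GAPDH, often used to scale other genes, was more than 10 times lower. Of 22 tested hypoxia targets outside glycolysis, 20 fell and 0 rose (median -2.06), with STC2, stanniocalcin 2, at 1.67, 1.801, 1.76 and 1.83 FPKM, against 39.7, 32.2, 35.6 and 33.6 FPKM in naive tumours.

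The core of the hypoxia response element, ACGTG on either strand, stood in 8 of 21 glycolysis promoters (38.1%) and in 10 of 19 promoters of the other hypoxia targets (52.6%), against 27.0% of the promoters of tested coding genes. These letters lie within the E-box CACGTG, so that both motifs can mark the same bases. LDHA and LOX are shown with them in capitals.
LDHA (chr11:18394445-18394544, plus strand): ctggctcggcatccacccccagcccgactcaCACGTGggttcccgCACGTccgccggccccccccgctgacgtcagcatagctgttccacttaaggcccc
LOX (chr5:122078260-122078359, minus strand): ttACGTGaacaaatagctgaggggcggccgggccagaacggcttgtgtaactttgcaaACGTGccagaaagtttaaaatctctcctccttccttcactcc

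Genes of lipid synthesis fell. Of 24 tested genes of cholesterol synthesis and uptake, 21 fell and 0 rose (median -1.43), and of 15 genes of fatty acid synthesis, 14 fell and 1 rose (median -1.48). STARD4, which carries sterols between membranes, had 1.05, 1.55, 0.794 and 1.57 FPKM at 6 weeks, against 19.9, 21.6, 15.3 and 16.8 FPKM in naive tumours. FASN, fatty acid synthase, had 11.8, 10.1, 7.13 and 8.81 FPKM, against 98.9, 81.5, 137 and 157 FPKM in naive tumours, and FADS2, a desaturase of polyunsaturated fatty acids, had 0.495, 0.693, 0.534 and 0.4598 FPKM, against 23.9, 34.8, 27.9 and 31.9 FPKM. Every 6 weeks level was below every naive level here. Only 1 of 18 cholesterol gene promoters held the sterol regulatory element TCACNCCAC (5.56%), against 1.12% of all tested coding ones. Fatty acid oxidation moved little: 2 of 18 genes rose and 7 fell, with none at 2-fold, and CPT2, which loads fatty acids into mitochondria, changed by -0.40 ± 0.10. Neither rise in that list was called when naive replicate 1 was left out.

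Amino acid supply, protein synthesis and quality control were lower in part. Of 24 amino acid supply genes and ATF4 targets, 16 fell and 1 rose, with the cystine carrier SLC7A11 at 2.24, 1.65, 2.05 and 2.43 FPKM at 6 weeks, against 15.7, 16.4, 14.03 and 15.4 FPKM in naive tumours, and PSAT1, of serine synthesis, at 4.75, 6.21, 8.32 and 5.69996 FPKM, against 31.3, 32.4, 33.7 and 33.9 FPKM. No promoter of 21 of these genes held TGATGNAAT, a form of the CEBP-ATF response element, in the window read. Of 12 cytosolic aminoacyl-tRNA synthetases 9 fell, with glycyl-tRNA synthetase, GARS, changed most (-1.34 ± 0.08). Ribosome biogenesis genes fell in 20 of 23 tested (median -0.69), led by BOP1 (-1.37 ± 0.17). Of 43 ribosomal protein genes 7 fell and 0 rose. The count that fell was 16 without 6 weeks replicate 3, 4 without 6 weeks replicate 2 and 14 without the 3 libraries that stand apart, and 6 weeks replicate 3 was the highest of its group for 42 of these 43 genes.

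Chaperones of the endoplasmic reticulum fell in 15 of 18 genes, among them the disulfide isomerases PDIA6 (-1.29) and PDIA4 (-1.28). Heat shock proteins were 4 higher and 5 lower of 13, near the 28.1% and 35.7% of protein coding genes. The small chaperone HSPB1 had 248, 219, 239 and 196 FPKM at 6 weeks, against 72.8, 58.2, 104 and 123 FPKM in naive tumours (log2 change 1.38 ± 0.19), while mitochondrial HSPD1 fell (-0.57). Proteasome core subunits fell in 10 of 14, none of them 2-fold, with PSMB2 changed most (-0.99), and 6 weeks replicate 3 was the highest of its group for 12 of the 14.

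Mitochondrial genes encoded in the nucleus fell more often than they rose. Of the 18 tested TCA cycle genes 13 fell and 0 rose (median -0.42), led by FH, fumarase (-1.02 ± 0.10). Of 35 nuclear-encoded genes of oxidative phosphorylation 15 fell and 2 rose (1 without naive replicate 3 or 4 or 6 weeks replicate 3; median -0.27), with cytochrome c, CYCS, at 14.8, 14.3, 22.7 and 22.02 FPKM at 6 weeks, against 48.3, 45.95, 39.1 and 38.1 FPKM in naive tumours. The share of these 35 genes that fell lay between the 35.7% of all protein coding genes and the 50.4% of those at 20 FPKM or more. For 33 of these 35 genes, 6 weeks replicate 3 was the highest sample of its group, as it was for 5546 of all 16029 genes. Among the 13 mitochondrially encoded genes 3 rose and 0 fell, a share of rises below the 28.8% of all genes, and 6 rose in a fit on the 8 samples alone. MT-ND3, a subunit of complex I, had 7411, 8386, 12318 and 12049 FPKM at 6 weeks, against 3409.8, 5452, 2554 and 2920.2 FPKM in naive tumours (log2 change 1.51 ± 0.40, adjusted p = 0.003). The share of reads from mitochondrially encoded genes was 8.35 ± 0.787% at 6 weeks and 6.10 ± 1.12% in naive tumours (SD, n = 4 each; exact two-sided permutation p = 0.0286, the smallest that 4 against 4 samples allow, 0.0429 adjusted over 3 measures). Without any 1 of the 6 weeks libraries the exact p was 0.0571. Replicates 3 and 4 carried the highest shares of the 6 weeks samples. MT-ND2 (0.96, adjusted p = 0.0215) was no longer called without naive replicate 3 (log2 change 0.85, adjusted p = 0.0624).

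Oxidative stress genes fell more often than they rose, with 3 higher and 16 lower of 22 NRF2 targets and related genes. The quinone reductase NQO1 had 9.59, 9.28, 12.8 and 9.37 FPKM at 6 weeks, against 42.3, 48.7, 43.2 and 42.3 FPKM in naive tumours, and the groups did not overlap. Iron and ferroptosis genes divided, 3 higher and 8 lower of 14, with the transferrin receptor TFRC at 3.26, 2.93, 2.24 and 4.77 FPKM, against 15.5, 22.96, 15.2 and 15.6 FPKM in naive tumours, and the metalloreductase STEAP4 at 6.18, 6.29, 6.83 and 7.67 FPKM, against 0.481, 0.693, 0.297 and 0.357 FPKM. Aldehyde dehydrogenases rose in 7 of 14 and fell in 5, with ALDH3B1 at 18.3, 16.2, 16.1 and 14.99 FPKM, against 1.599, 1.004, 1.56 and 1.59 FPKM in naive tumours. Of 13 ABC transporters 6 rose, among them the cholesterol exporter ABCA1 (2.24), and 6 fell, among them the drug exporters ABCC4 (-2.44) and ABCC1 (-1.57).

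Autophagy genes rose more often than they fell. Of 24 autophagy genes 14 rose and 3 fell (median 0.40). GABARAPL1, which marks autophagosome membranes, had 15.5, 14.5, 18.2 and 14.1 FPKM at 6 weeks, against 5.87, 6.88, 5.09 and 6.05 FPKM in naive tumours (log2 change 1.25 ± 0.09). Lysosomal genes rose about as often as all genes did (28.8%), with 9 higher, 4 lower and 20 not called of 33. Among the cathepsins, CTSF had 13.8, 14.8, 16.8 and 12.2 FPKM, against 0.606, 1.23, 1.35 and 1.22 FPKM in naive tumours (log2 change 2.88 ± 0.13), and CTSS had 54.3, 54.3, 76.1 and 58.6 FPKM, against 17.8, 18.8, 14.5 and 16.9 FPKM. The E-box CACGTG, core of the CLEAR element of lysosomal genes, stood in 9 of 23 lysosomal promoters (39.1%), against 10.2% of all tested coding ones. The genes with it other than CTSF changed little, with log2 changes from -0.61 (CD63) to 0.23 (GAA). CTSF, shown here, had by far the largest change of them.
CTSF (chr11:66568607-66568706, minus strand): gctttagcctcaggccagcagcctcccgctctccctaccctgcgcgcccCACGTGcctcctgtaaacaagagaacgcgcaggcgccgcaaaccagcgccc

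**Figure D3:**
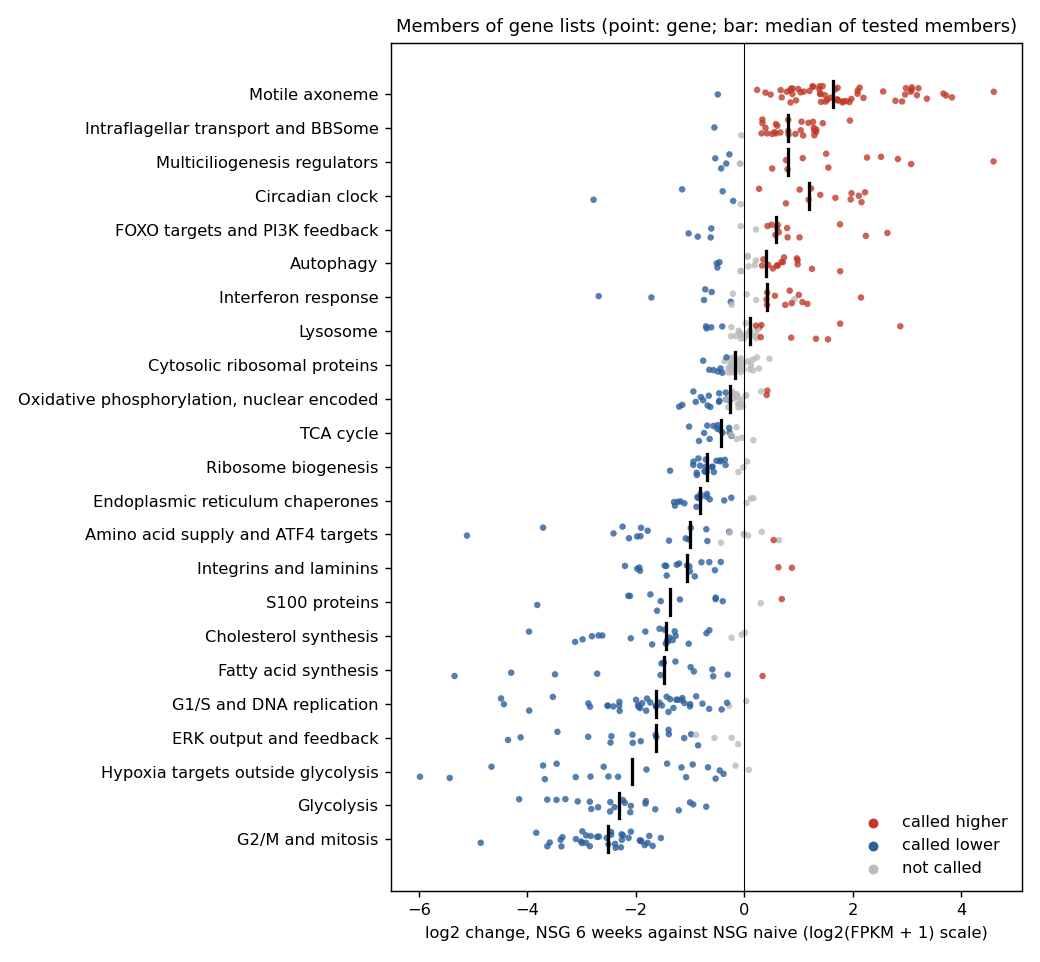
Log2 change at 6 weeks against naive for the tested members of 23 gene lists, 1 point per gene, with the list's median as a black bar. Medians run from 1.64 in the motile axoneme list at the top to -2.50 in the G2/M list at the bottom, and red, blue and grey mark genes called higher, called lower and not called.

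Genes of the motile cilium rose. Of 65 listed genes of the motile axoneme, 58 passed the filter on low values, 57 rose and 1 fell (median 1.64). Members near the floor in naive tumours passed the filter only through treated samples and could hardly be called lower. This tilts the count toward rises. ROPN1L, of the radial spokes, had 37.9, 30.5, 57.3 and 31.5 FPKM at 6 weeks, against 0.845, 0.279, 0.7998 and 0.55995 FPKM in naive tumours (log2 change 4.60 ± 0.24). RSPH1, another radial spoke protein, had 24.04, 23.1, 43.02 and 20.7 FPKM, against 1.66, 0.954, 0.559 and 0.721 FPKM in naive tumours, and TPPP3, a tubulin-binding protein of multiciliated cells, had 32.8, 27.2, 41.2 and 24.04 FPKM, against 0.642, 0.7502, 0.583 and 0.526 FPKM. Replicate 3 was the highest 6 weeks sample in these 3 genes. The 1 member that fell, named after its values were seen, was DNAH2, a dynein heavy chain, with 0.616, 0.448, 0.3197 and 0.426 FPKM, against 1.29, 0.699, 1.11 and 1.06 FPKM in naive tumours (log2 change -0.49 ± 0.11).

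Cilium transport and the regulators followed. Of 29 tested genes of intraflagellar transport and the BBSome 27 rose and 1 fell, with IFT57 at 14.3, 12.2, 20.5 and 14.02 FPKM at 6 weeks, against 2.72, 3.47, 3.22 and 3.15 FPKM in naive tumours. Among 17 tested regulators of multiciliogenesis 11 rose and 4 fell, none of these 4 by 2-fold or more. The regulators named next are all among those that rose. CDC20B, whose locus hosts microRNAs of multiciliated cells, had 27.2, 27.04, 37.9 and 34.8 FPKM, against 0.325, 0.395, 0.323 and 0.306 FPKM in naive tumours (log2 change 4.60 ± 0.13). CCNO, the cyclin of centriole multiplication, had 125, 123, 108 and 95.2 FPKM, against 10.9, 8.55, 17.3 and 14.4 FPKM, and FOXJ1, the master factor of motile cilia, had 119, 92.6, 156 and 101 FPKM, against 15.8, 17.3, 20.4 and 23.9 FPKM in naive tumours (log2 change 2.52 ± 0.17). FOXJ1 was thus read in naive tumours too, while FOXN4, a forkhead factor upstream of cilia, had 5.82, 6.74, 5.38 and 7.19 FPKM at 6 weeks, against 0, 0.0183, 0.0419 and 0 FPKM in naive tumours.

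RFX factors, which act with FOXJ1, are known to bind the X-box, whose core is written here as GTTGCCA on either strand. It stood in 13 of 47 axoneme promoters (27.7%), against 3.86% of tested coding ones. RSPH4A, a radial spoke head protein, TEKT1, a tektin of axonemal microtubules, and DRC1, of the dynein regulatory complex, carry it within 60 bases of the start, in capitals below. TEKT1 and DRC1 were chosen for the motif after their values were seen (log2 changes 3.19 and 2.98).
RSPH4A (chr6:116616379-116616478, plus strand): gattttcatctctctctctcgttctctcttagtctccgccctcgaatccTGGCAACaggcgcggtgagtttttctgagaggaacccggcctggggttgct
TEKT1 (chr17:6831730-6831829, minus strand): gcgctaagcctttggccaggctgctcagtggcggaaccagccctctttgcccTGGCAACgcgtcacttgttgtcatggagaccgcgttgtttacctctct
DRC1 (chr2:26401820-26401919, plus strand): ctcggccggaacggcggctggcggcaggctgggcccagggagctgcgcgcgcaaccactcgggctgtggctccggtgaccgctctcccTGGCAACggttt

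Other airway lineages showed a mixed picture. In the club cell and airway secretory list 6 of 14 tested genes rose and 3 fell: besides SCGB1A1, CYP4B1, a cytochrome of club cells, had 8.77, 9.199, 8.63 and 9.06 FPKM at 6 weeks, against 0.0211, 0.0548, 0.126 and 0.0345 FPKM in naive tumours. BPIFB2, a secreted BPI-fold protein, had 25.5, 22.6, 46.3 and 31.5 FPKM, against 352, 1421, 542 and 624 FPKM in naive tumours, where replicate 2 was more than 2 times as high as any other. Alveolar type 2 genes were 4 higher and 4 lower of 11, near the 28.1% and 35.7% of protein coding genes. NKX2-1 had 259, 244, 233 and 203 FPKM at 6 weeks, against 79.4, 64.6, 104 and 95.2 FPKM in naive tumours (log2 change 1.46 ± 0.14), and its neighbour SFTA3 also rose (1.49). NAPSA, the aspartic protease napsin A that NKX2-1 is known to activate, fell to 0.6701, 1.099, 0.556 and 0.82999 FPKM, against 5.69, 1.68, 5.296 and 3.53 FPKM in naive tumours. Of 10 type 1 genes 3 rose, 4 fell and 3 did not pass the test, also near the shares of protein coding genes. Those that rose were HOPX (2.29), GPRC5A (1.79) and CLIC5 (1.59), and the water channel AQP5 was among those that fell (-3.81).

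Mucous and gastric genes were mostly lower, with 6 higher and 11 lower of 19 tested, 2 and 11 of them at least 2-fold. The genes of this list named next are all among those that fell. MUC5B, a gel-forming airway mucin, had 2.24, 2.21, 2.32 and 3.196 FPKM at 6 weeks, against 145, 274, 196 and 224 FPKM in naive tumours (log2 change -5.89 ± 0.27). MUC2, the intestinal mucin, had 0.459, 0.323, 0.393 and 0.391 FPKM, against 31.5, 33.3, 36.7 and 41.8 FPKM in naive tumours, and the trefoil peptide TFF1 had 25.3, 20.2, 48.9 and 31.1 FPKM, against 154, 369.5, 200.4 and 228 FPKM. In each of the 3 every naive sample was above every 6 weeks sample. Of 8 tested ion transport genes 3 rose (1 without 6 weeks replicate 1) and 4 fell, among them the chloride cotransporter SLC12A2 (-2.12).

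Keratins, adhesion and matrix receptors fell. Of 5 tested simple keratins 4 fell, with KRT19 at 131, 122, 164 and 148 FPKM at 6 weeks, against 716, 527, 965 and 912 FPKM in naive tumours (log2 change -2.43 ± 0.20). Basal and stratified keratins divided, 3 higher and 6 lower of 11, KRT6A being lower (-2.45) and KRT4 higher (1.97). Of 19 integrins and laminins 17 fell and 2 rose (1 without naive replicate 2, without 6 weeks replicate 1, 2 or 4, with the replicate block, and without the 3 libraries that stand apart), with LAMB1, a laminin chain, at 0.867, 1.31, 0.808 and 1.11 FPKM, against 7.94, 7.66, 8.62 and 8.801 FPKM in naive tumours, and integrin ITGB5 at 5.02, 4.802, 4.83 and 4.44 FPKM, against 20.5, 15.3, 25.1 and 27.7 FPKM. S100 calcium-binding proteins fell in 10 of 12. S100A6, the highest nuclear gene of the naive tumours, had 3628, 3645, 5209 and 4160.2 FPKM at 6 weeks, against 13018, 10358, 14181 and 12918 FPKM, and S100A9 was listed at 0 in all 4 of the 6 weeks samples, against 14.8, 12.4, 14.5 and 10.99 FPKM (117, 113, 115 and 106 reads) in naive ones.

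Junction and mesenchymal genes changed in both directions. Of 20 tested junction genes 4 rose and 8 fell (2 rose when naive replicate 1 or 2, or 6 weeks replicate 1, 3 or 4, was left out): GRHL1, a grainyhead factor, had 25.99, 25.8, 25.4 and 25.01 FPKM, against 4.64, 4.398, 4.53 and 4.18 FPKM in naive tumours, while CLDN10, a claudin, had 3.68, 6.49, 4.94 and 6.16 FPKM, against 64.7, 103, 66.9 and 71.4 FPKM. Mesenchymal genes fell in 5 and rose in 2 of 12 tested (1 rose without naive replicate 2 or 4, without 6 weeks replicate 1, 2 or 4, and without the 3 libraries that stand apart). N-cadherin, CDH2, fell (-2.25), and TAGLN, transgelin, rose by 0.63 ± 0.24 (adjusted p = 0.0294), a call lost without the 3 libraries that stand apart (log2 change 0.53, adjusted p = 0.159) and without naive replicate 2 alone (0.47, adjusted p = 0.112).

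YAP and TEAD targets were lower in 7 and higher in 5 of 13 tested (3 higher without the 3 libraries that stand apart). NT5E, the ectonucleotidase CD73, had 6.66, 6.13, 6.43 and 7.44 FPKM at 6 weeks, against 51.7, 71.9, 51.1 and 55.04 FPKM in naive tumours. TEAD4 (-2.004) and the coactivator WWTR1, TAZ (-1.78), fell as well. Notch genes were 5 higher and 4 lower of 17, near the 28.8% of all genes in each direction (3 higher without the same libraries): with the ligand DLL1 rose DTX4 (1.46), while the receptor NOTCH1 (-1.12) and the target HES1 (-1.07) fell. Of 5 tested neuroendocrine genes 2 rose and 3 fell, with the granule protein CHGB at 0.0802, 0.3404, 0.219 and 0.154 FPKM at 6 weeks, against 1.08, 1.03, 1.04 and 0.779 FPKM in naive tumours.

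In the Wnt list 9 of 22 rose and 6 fell. The feedback gene AXIN2 had 7.83, 7.67, 6.31 and 5.31 FPKM at 6 weeks, against 0.433, 0.509, 0.264 and 0.206 FPKM in naive tumours, whereas the receptors FZD8 (-3.77) and LRP5 (-2.30) fell. BMP genes rose in 8 and fell in 3 of 20, with ATOH8, a BMP target, at 7.64, 5.93, 5.99 and 4.98 FPKM, against 0.01203, 0.0521, 0.108 and 0.06895 FPKM in naive tumours (log2 change 2.74 ± 0.15), and the ligands BMP4 (1.26) higher and BMP7 (-1.59) lower. Of 12 TGF-beta genes 6 fell, and INHBB, an activin subunit, rose to 24.3, 22.3, 26.1 and 17.5 FPKM, against 1.92, 0.395, 1.79 and 1.27 FPKM in naive tumours.

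Among the 12 tested Krueppel-like factors 3 rose and 5 fell (3 fell without the 3 libraries that stand apart), with KLF9 at 5.61, 4.53, 6.79 and 5.101 FPKM at 6 weeks, against 2.05, 4.35, 3.005 and 3.71 FPKM in naive tumours. Of the steroid receptor and secretory genes 5 of 8 rose and 2 fell, the serine protease TMPRSS2 rising (1.54) and the glucocorticoid-induced FKBP5 falling (-1.40). Histone genes linked to the cell cycle fell in 4 and rose in 6 of 13, with H2AFX, the variant phosphorylated at DNA breaks, at 15.6, 13.3, 13.5 and 13.9 FPKM, against 80.4, 74.2, 118 and 114 FPKM in naive tumours.

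Survival and immune genes were followed too. The BCL2 family had 4 higher and 4 lower of 13 tested, near the 28.8% of all genes in each direction. BMF, a BH3-only activator of apoptosis, had 85.9, 84.2, 78.4 and 75.2 FPKM at 6 weeks, against 16.04, 7.92, 13.9 and 14.9 FPKM in naive tumours (log2 change 2.57 ± 0.15), and BIK, of the same class, rose (1.30). BCL2, which blocks apoptosis, had 3.84, 4.23, 3.39 and 3.29 FPKM, against 0.665, 1.03, 0.791 and 0.666 FPKM in naive tumours, and the proapoptotic BID fell (-1.16). Of 22 interferon response genes 11 rose and 6 fell, UBE2L6 at 7.51, 8.71, 9.13 and 6.79 FPKM, against 0.299, 0.923, 1.72 and 1.44 FPKM in naive tumours, and IFITM2 at 0.754, 1.401, 0.397 and 0.378 FPKM, against 10.4, 8.33, 10.4 and 10.4 FPKM.

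MHC class I genes rose in 5 and fell in 2 of 12 tested (3 rose without the 3 libraries that stand apart), HLA-E being higher (0.59); genes of this locus are near-identical, so reads may be split between them. Chemokine and NF-kB genes fell in 9 and rose in 3 of 15. CXCL8, interleukin 8, had 5.15, 2.65, 2.93 and 12.99 FPKM at 6 weeks, against 66.4, 77.4, 71.5 and 62.98 FPKM in naive tumours (log2 change -3.57 ± 0.34), with replicate 4 at more than 2 times any other 6 weeks sample. Complement and its regulators rose in 4 of 7 tested, CLU among them, and CD55, which protects cells from complement, had 41.04, 35.4, 46.4 and 61.3 FPKM, against 16.4, 20.4, 15.1 and 17.96 FPKM in naive tumours.

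By class of gene, protein coding and long noncoding genes had different balances. Among 12022 tested protein coding genes 3373 rose and 4293 fell (28.1% and 35.7%). Among 2150 long noncoding genes 862 rose and 182 fell (40.1% and 8.47%). The protein coding balance turned with the level: at a mean under 2 FPKM 39.5% rose and 25.3% fell, and at 20 FPKM or more 16.7% rose and 50.4% fell. Long noncoding genes rose more often than they fell in every band, at 47.7% and 15.4% of the 149 genes between 5 and 20 FPKM. Antisense genes counted here share their locus with another gene, and whether the counting used strand is not given in the sources used here.

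**Figure D4:**
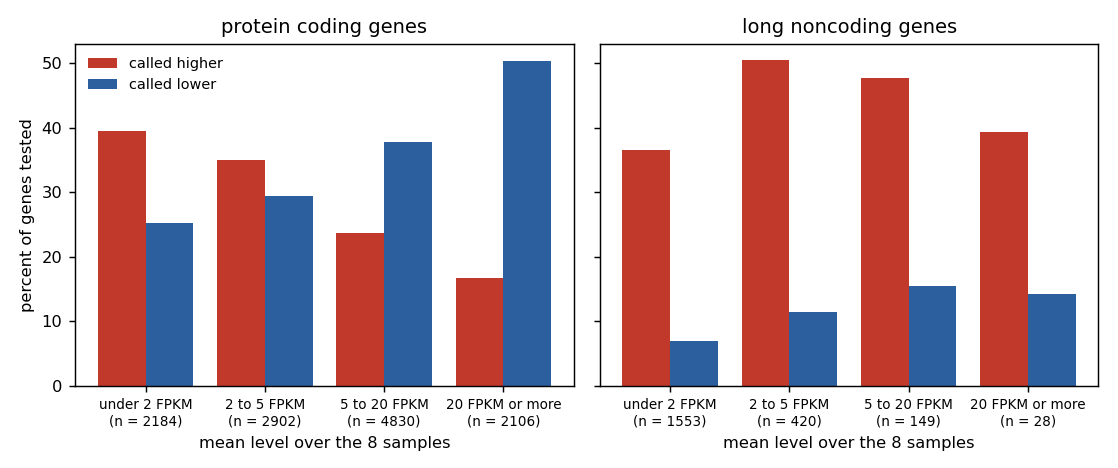
Percent of tested genes called higher (red) and lower (blue) at 6 weeks, by mean FPKM over the 8 samples, for protein coding (left) and long noncoding genes (right). Weak genes passed the filter more easily where treated samples were higher. Among protein coding genes the lower calls go up with the level to 50.4% at 20 FPKM or more; among long noncoding genes higher calls are the larger share in all 4 bands.

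H19 (ENSG00000130600, hg38 chr11:1995176-2001470), an imprinted long noncoding RNA of fetal tissue and tumours, had 0.628, 1.44, 0.7396 and 2.68 FPKM at 6 weeks, against 744, 793, 983 and 912 FPKM in naive tumours (log2 change -8.57 ± 0.35, adjusted p = 4.99e-14). Reads numbered 25, 54, 28 and 133 at 6 weeks, against 29509, 36267, 39180 and 44159 in naive tumours, and every naive sample was more than 100 times every 6 weeks one. Higher long noncoding genes included PTCSC3, a transcript near NKX2-1, with 42.3, 43.8, 35.8 and 35.6 FPKM, against 1.79, 1.997, 1.3998 and 1.78 FPKM in naive tumours, and IGFL2-AS1, with 39.4, 49.2, 32.6 and 43.1 FPKM, against 2.504, 0.796, 2.24 and 1.74 FPKM. AL135999.3 had 18.5, 18.4, 22.1 and 15.6 FPKM at 6 weeks (207, 194, 235 and 218 reads) and was listed at 0 in every naive library.

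Genes at 1 FPKM or more numbered 13646, 13762, 13090 and 13500 at 6 weeks, against 12883, 12534, 12622 and 12460 in naive tumours (exact two-sided permutation p = 0.0286, adjusted 0.0429 over 3 measures). Every 6 weeks library was above every naive one. The difference had an exact p of 0.0571 without naive replicate 2, 3 or 4. At a detection level of 0.1 FPKM the groups overlapped, because 6 weeks replicate 3 had 19536 genes against 19375 to 20037 in naive tumours (exact p = 0.114). The 10 highest genes took 9.38 ± 0.882% of reads at 6 weeks and 8.63 ± 0.383% in naive tumours (SD, n = 4 each), a difference that did not pass the test (exact p = 0.229).

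By transcription factor class, of 440 tested zinc finger C2H2 genes 193 were higher and 50 lower (median log2 change 0.23), against 28.8% each of all genes tested. ZBTB genes were 15 higher and 2 lower of 37, homeobox genes 28 and 12 of 69, and HMG genes 3 and 17 of 34. Whether these classes differ from other genes of the same level was not tested. MYCL, the L-MYC proto-oncogene and 1 of the factors that rose, had 17.02, 18.6, 20.9 and 15.3 FPKM at 6 weeks, against 1.198, 1.79, 1.97 and 1.83 FPKM in naive tumours (log2 change 2.81 ± 0.16). Chromatin regulators tied to drug tolerance fell in 11 and rose in 2 of 21 tested (1 rose without naive replicate 3 or 6 weeks replicate 2), with the histone methyltransferase EZH2 (-1.37) and the DNA methyltransferase DNMT1 (-1.12) lower and HDAC5 higher (1.13). By chromosome the medians of the log2 change ran from -0.06 on X to 0.12 on chromosome 14 among nuclear chromosomes, and the median was 0.25 over the 36 tested genes of mitochondrial DNA.

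The 6 weeks state was also set against 2 weeks of alectinib in the same host. Both treated groups are compared with the same naive samples, so their changes against naive share these. Between 6 and 2 weeks, 3264 of 16029 genes changed (20.4%), 1352 higher (8.43%) and 1912 lower (11.9%), and 72 (0.449%) and 271 (1.69%) did so at least 2-fold. Of the 1236 genes at least 2-fold higher than naive at 6 weeks, 310 were higher still than at 2 weeks and 306 were lower than at 2 weeks. Of the 1247 at least 2-fold lower, 328 were lower still than at 2 weeks and 18 were higher. The same 6 weeks samples entered the choice of these genes and the comparison with 2 weeks. This tilts both splits toward genes that are higher still or lower still. In all, 858 genes differed from 2 weeks but were not called against naive. The count of higher genes was 915 without 6 weeks replicate 4.

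Motile cilium genes were lower at 6 than at 2 weeks. Of the 58 tested axoneme genes 53 fell between the times and 0 rose (median -0.97), as did 14 of 17 regulators (median -0.87). FOXJ1 was at 15.8, 17.3, 20.4 and 23.9 FPKM in naive tumours, 389, 558, 378 and 421 FPKM at 2 weeks and 119, 92.6, 156 and 101 FPKM at 6 weeks (6 against 2 weeks -1.90 ± 0.17, adjusted p = 1.23e-07). RSPH1 stood at 91.5, 78.9, 62.4 and 56.1 FPKM at 2 weeks and 24.04, 23.1, 43.02 and 20.7 FPKM at 6 weeks (-1.38 ± 0.20). Samples of 2 and 6 weeks did not overlap in either gene, and 6 weeks levels remained above all naive ones. WDR38, a WD-repeat gene, also fell, with 41.7, 39.1, 27.8 and 31.2 FPKM at 2 weeks and 8.02, 5.8997, 7.06 and 5.88 FPKM at 6 weeks (-2.21 ± 0.13).

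Clock genes went the other way. The list of 17 tested clock genes had 10 higher and 1 lower at 6 than at 2 weeks (median 1.07), and 12 higher and 4 lower than naive (2 lower without naive replicate 2; median 1.19). NR1D1, the repressor REV-ERB alpha, was at 7.99, 9.58, 8.49 and 11.9 FPKM in naive tumours, 5.94, 7.797, 6.27 and 6.74 FPKM at 2 weeks and 50.4, 42.6, 35.7 and 31.96 FPKM at 6 weeks (6 against 2 weeks 2.41 ± 0.18, adjusted p = 2.43e-08). The PAR bZIP factors that the clock drives, DBP and TEF, reached 10.98, 10.8, 10.04 and 6.99 and 11.7, 9.398, 10.8 and 8.76 FPKM at 6 weeks, against 0.837, 1.19, 1.64 and 1.902 and 1.58, 1.53, 1.62 and 1.54 FPKM in naive tumours. The period genes PER1 (1.61 ± 0.19) and PER3 (1.63 ± 0.12) were also higher than at 2 weeks. In all of these genes 6 weeks samples lay above both other groups. BHLHE40, a clock repressor that hypoxia and ERK also induce, had 79.4, 66.2, 72.2 and 82.2 FPKM in naive tumours, 2.73, 3.41, 2.87 and 4.34 FPKM at 2 weeks and 10.3, 7.89, 8.296 and 15.04 FPKM at 6 weeks. The labels give no time of day for the collection of any sample.

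Other genes kept moving between the times. ATOH8 had 1.43, 1.79, 1.22 and 1.23 FPKM at 2 weeks and 7.64, 5.93, 5.99 and 4.98 FPKM at 6 weeks (1.55 ± 0.15), and CLU had 33.8, 37.6, 31.2 and 31.4 FPKM at 2 weeks and 61.6, 55.1, 63.8 and 35.9 FPKM at 6 weeks (0.65 ± 0.19, adjusted p = 0.0227). C2CD4C was at 16.4, 22.003, 13.9 and 19.7 FPKM at 2 weeks, below every 6 weeks sample (1.23 ± 0.21). EGR1, an immediate early gene of ERK, was uneven at 6 weeks with 55.8, 12.8, 8.17 and 77.8 FPKM, against 3.44, 4.79, 5.56 and 5.44 FPKM at 2 weeks and 44.8, 62.4, 46.8 and 46.8 FPKM in naive tumours: replicates 1 and 4 were as high as naive samples, and replicates 2 and 3 were lower. Mitotic genes fell further in 30 of 37 (median -0.63), while MKI67 itself did not pass the test (-0.22 ± 0.13, adjusted p = 0.243). Glycolysis stayed near its 2 weeks level, with a median of -0.08, 1 higher and 4 lower.

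**Figure D5:**
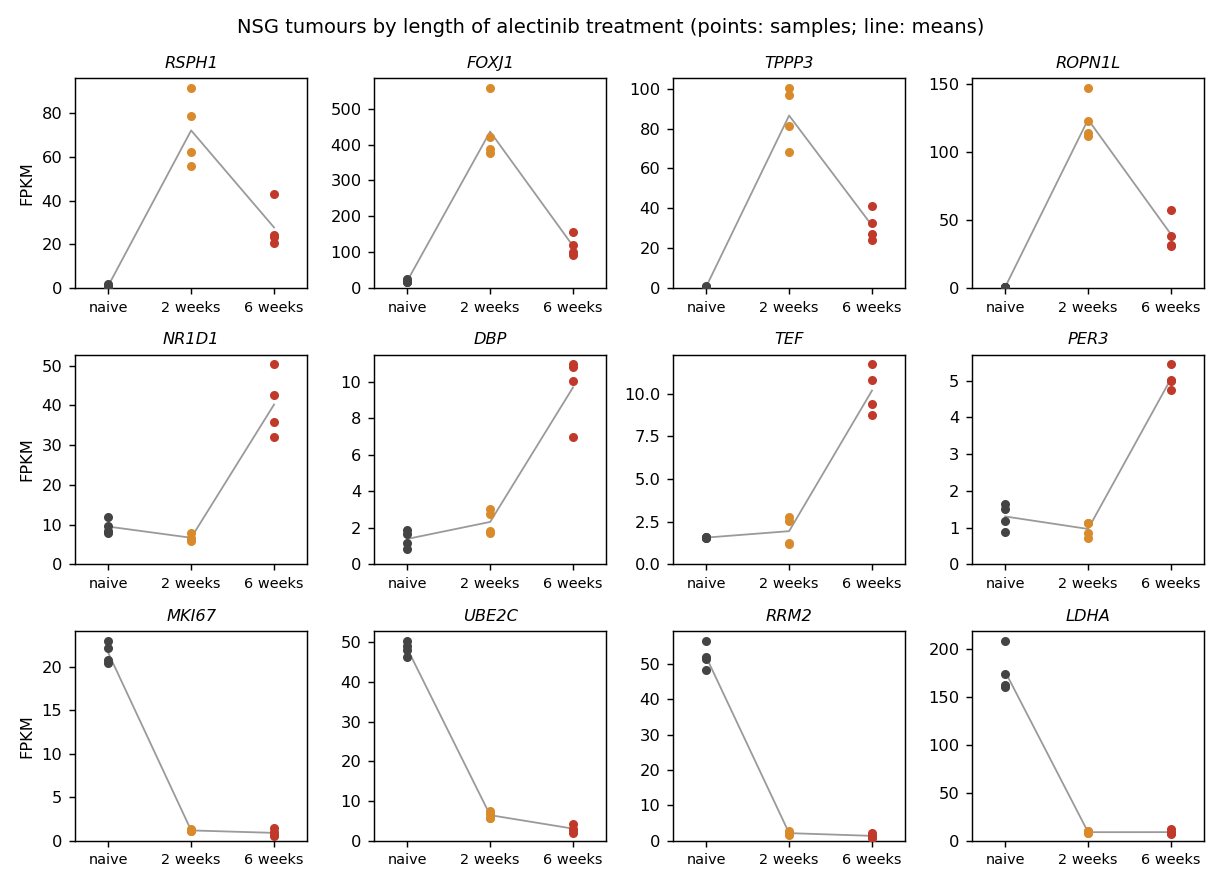
Levels (FPKM, linear axes from 0) of 12 genes in naive, 2 weeks and 6 weeks NSG tumours, 1 point per sample with a line through the means. The 4 cilium genes in the top row peak at 2 weeks, the 4 clock genes in the middle row are highest at 6 weeks, and the 4 division and glycolysis genes below are low at both times.

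The same 6 weeks comparison in hHGF-NSG mice, with 3 treated and 3 naive samples, asks whether the host changed the response. Of the 2483 genes called at least 2-fold in NSG, 2293 (92.3%) were called in the same direction in hHGF-NSG, at any size of change. Both responses use the same estimate of spread per gene. In NSG 57.6% of all genes tested were called, and the share of all genes called in hHGF-NSG was not counted. MET, for one, averaged 12.2 ± 1.91 FPKM at 6 weeks and 25.3 ± 1.84 FPKM naive in NSG (SD, n = 4 each), and 11.8 ± 0.649 FPKM and 26.8 ± 2.13 FPKM in hHGF-NSG (SD, n = 3 each). A test of the difference between the 2 responses called 0 of 16029 genes (0%) with limma, although 2142 had an unadjusted p under 0.05. This count rests on single libraries: it was 62 with naive replicate 1, the library with the HGF reads, left out (15 with a larger and 47 with a smaller value in NSG), 5 without naive replicate 2, 3 without 6 weeks replicate 3 and 962 without all 3 (269 and 693). The setting behind the 962 was chosen after the data were seen. Leaving out libraries that stand apart can also lower the estimated spread, so the 962 is not read as a host effect. Limma voom on the recovered reads called 0. The 0 is therefore no sign that the hosts respond alike.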

How the data were processed

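RNA-seq of H3122 xenografts was deposited as a table of human genes with FPKM values for 22 samples, made by the authors on hg38 (GRCh38) per the submitters' processing notes, which also name mm10 and DESeq2, with no aligner or counter given in the sources used here. How reads of mouse origin were kept out of the human table is not given there either. Whole reads recovered from the FPKM steps (100% of values whole within 0.05) gave 11934313 to 16329855 reads at 6 weeks and 14821038 to 19065656 in naive libraries. The deposited values are already on a common median-ratio scale: such factors were 1.008 in all samples.

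Genes at 1 FPKM or more in at least 3 samples (16029 of 58735) were tested on log2(FPKM + 1) with limma 3.58.1 (R 4.3.3, empirical Bayes with trend, 6 group means, Benjamini-Hochberg adjustment over all genes, 0.05), which was tested on simulated data. Figures and summaries used Python 3.11.15, pandas 2.3.3, numpy 2.4.6, scipy 1.17.1 and matplotlib 3.10.9. Unless said otherwise, an adjusted p is from this fit. Sample measures had an exact two-sided permutation test. Samples were grouped by their labels.

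Named genes, protein coding with a symbol unique in the table unless long noncoding, were first ALK, EML4, HGF and MET. Next came the 15 per direction with the largest change (8 against 2 weeks) among called genes. These had no overlap between groups and at least 5 FPKM in the higher group. From each gene list up to 4 called members with no overlap were named, or, with none, the member with the highest level. The 10 genes with the highest level in each group were added. Last came 3 transcription factors and 3 long noncoding genes per direction, under the conditions of the 15. Members and lists were chosen with earlier results of these data known. Alternatives were a pseudocount of 0.1, no filter, rescaling, a replicate block, the 8 samples alone, limma voom on recovered reads, each library left out and 3 libraries left out together. A few genes are not reported here.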

Additional observations from a re-analysis of the deposited data

Results flagged for a closer look

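Of 482 pairs of a named gene and a group of 4 samples, 33 held 1 sample far from the other 3, by Dixon's 95% limit on the gap as a share of the group's range (on the log2(FPKM + 1) scale). Chance gives such a gap in about 1 of 20 groups, and pairs of genes in the same library are not independent.

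In the library of NSG naive replicate 2, several gene values stood apart. It was high for EGR1 (62.4 FPKM, others 44.8 to 46.8), NQO1 (48.7, others 42.3 to 43.2) and TFRC (22.96, others 15.2 to 15.6). It was low for IGFBP3 (65.3 FPKM, others 133 to 149), PIK3IP1 (3.38, others 4.09 to 4.23), MST1R (6.16, others 10.05 to 10.9), BIK (11.2, others 15.03 to 15.9), HYOU1 (16.2, others 19.97 to 20.7) and ALDH3B1 (1.004, others 1.56 to 1.599). It was also low for KRT6B (1.69 FPKM, others 4.59 to 5.48), WNT7B (1.29, others 3.42 to 4.03), IFITM2 (8.33, others 10.4) and S100A2 (102, others 169 to 185).

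In NSG 6 weeks replicate 3, PIP (53.4 FPKM, others 27.3 to 28.5), the cilium genes PIFO (21.7, others 12.4 to 13.4) and C5orf49 (18.6, others 11.1 to 11.7), GADD45A (15.9, others 11.01 to 11.5) and NQO1 (12.8, others 9.28 to 9.59) were high. So were the proteasome subunits PSMB2 (15.03 FPKM, others 10.6 to 11.2), PSMA7 (96.3, others 76.6 to 79.6) and PSMB5 (160.4, others 101 to 107), and ALDH16A1 (4.61, others 3.54 to 3.696).

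In NSG 6 weeks replicate 4, MET (15.03 FPKM, others 10.9 to 11.5) and MUC5B (3.196, others 2.21 to 2.32) were high. In 6 weeks replicate 2, CDH2 was high (3.66 FPKM, others 2.54 to 2.58), and GAPDH (202, others 229 to 234) and KLF16 (8.88, others 10.1 to 10.3) were low. In 6 weeks replicate 1, MYBL2 was low (0.707 FPKM, others 1.25 to 1.34).

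The other naive libraries held the rest. CDKN2C (5.04 FPKM, others 8.33 to 9.09), FOXM1 (18.4, others 23.4 to 23.8) and CTSF (0.606, others 1.22 to 1.35) were low in replicate 1, AKAP12 (30.99, others 36.97 to 37.4) in replicate 3 and CHGB (0.779, others 1.03 to 1.08) in replicate 4.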

How the results depend on the processing

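In each of the 15 alternatives, 85.4% to 100% of the 9234 genes called against naive were called again, and 0 changed direction. With a pseudocount of 0.1, 2415 genes were at least 2-fold higher than naive, and with limma voom on the recovered reads 2463, against 1236; against 2 weeks these settings gave 129 and 147 at least 2-fold higher (against 72) and 573 and 616 lower (against 271). The host difference counted 6 genes with the pseudocount of 0.1, 5 with no filter, 0 to 62 with 1 library left out and 962 without the 3 libraries that stand apart, a setting chosen after seeing the data. Leaving out 1 library gave 4253 to 4604 genes higher than naive and 915 to 1535 higher than at 2 weeks. The difference in genes detected was 787.25 to 1011.25 with 1 library left out and 1295.75 at 0.1 FPKM, and in the mitochondrial share 1.88 to 2.70 percentage points. The exact p was 0.0571 for genes detected without naive replicate 2, 3 or 4 and for the mitochondrial share without any 1 of the 6 weeks libraries.

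For named genes, 4369 of 4405 recomputed values kept their direction and side of the threshold. Those that changed sign had not been called: without the 3 libraries HIST2H3D was -0.15, MT-CO1 0.051 and MT-CO2 0.018, and with 1 library left out MT-CO1 ranged over -0.13 to 0.016, MT-CO3 over -0.044 to 0.22, MT-CO2 over -0.15 to 0.11 and MT-ND4L over -0.043 to 0.17. The cause was not tested. Of 126 list counts, 104 stayed within 1.5 times in all alternatives.

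Samples with the same number shared no deviations (correlations of -0.104 to 0.0282), so the numbers give no pairing; with the replicate block 4478 genes were higher and 4433 lower than naive, and 0 differed between hosts. The planned edgeR test and TMM factors were not run, since the deposited unit is FPKM; median-ratio factors stood in for TMM. Depth limits genes at low levels: MKI67 had 93 to 318 reads in the 6 weeks libraries.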

Other observations

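Within the 6 weeks group, replicate 4 was the highest sample for 21.4% of the 16029 genes tested. It was the highest for 13 of the 20 tested ERK output genes, 20 of 37 G2/M genes, 10 of 15 NF-kB and chemokine genes, 9 of 13 YAP and TEAD targets and 8 of 12 mesenchymal genes. EGR1 had 77.8 FPKM in replicate 4 and 55.8 FPKM in replicate 1, against 12.8 and 8.17 FPKM in replicates 2 and 3. DUSP6 stood at 19.04 and 12.2 FPKM in replicates 4 and 1, against 6.85 and 8.23 FPKM in the other two. Replicate 3 was the highest sample for 5546 of the 16029 genes, and for 42 of 43 ribosomal protein genes, 33 of 35 nuclear-encoded oxidative phosphorylation genes, 12 of 14 proteasome genes and 10 of 13 mitochondrially encoded genes. No label separates these samples, and both patterns were noticed in the data and not tested.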
